A study of Mus musculus with 16 samples.

Results

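The alpha and beta adrenoceptors described here were 8 genes, Adrb1, Adrb3, Adra1a, Adra1b, Adra1d, Adra2a, Adra2b and Adra2c, of 20145 genes with a reference symbol on the array. They were chosen by name and not by a rule on measured values, though earlier results of these data were known. They were found through the accession of each probe in the RefSeq annotation and had 12 probes, 2 each for Adrb1, Adrb3, Adra1b and Adra1d and 1 each for the others. The study compared the bladder body of mature and aged C57BL/6 mice of both sexes, to ask how gene expression of the bladder changes with age. The age was 12 months in MAT and 27 to 30 months in AGED mice, and the labels name no transgene or treatment in any group. Each sex and age had 4 samples, and each sample 1 array. Each sample was the RNA of 1 bladder.

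Adrenoceptors are the G protein-coupled receptors of noradrenaline and adrenaline. Beta receptors couple to Gs and raise cAMP, which relaxes detrusor smooth muscle during bladder filling, and the beta-3 receptor is a drug target in overactive bladder. Alpha-1 receptors couple to Gq and contract smooth muscle, mainly at the bladder outlet and in vessels, while alpha-2 receptors couple to Gi and, on nerve endings, restrain transmitter release.

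Every level below is a log2 signal, the log2 of the processed spot signal less the 75th percentile of its array, so 0 is the level of the 75th percentile. Levels of different probes are not comparable, because probes differ in how strongly they bind. Whether a spot was well above background was taken from the flag of the scanning software. The 16 arrays had 52.3% to 68.2% of their probes well above background, and AGED male replicate 1 was the dimmest, with a log2 75th percentile of 9.18 where the remaining AGED males had 9.90 to 10. All female arrays lay on 1 slide and all male arrays on another, so sex and slide cannot be told apart, and MAT arrays lay in row 1 and AGED arrays in row 2 of both slides, so age and row cannot be told apart either. The tissue showed its defining markers: all 8 smooth muscle genes (mean log2 signal 6.62 to 7.26 on the 16 arrays) and all 7 urothelial genes were well above background on every array. Of the male accessory gland genes, 1 of 6 passed the filter.

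Of the 12 probes, 8 were well above background on all 16 arrays and 10 passed the filter of at least 4 arrays, so that 7 of the 8 adrenoceptors were tested. Adra1a, an alpha-1 receptor of smooth muscle, was not tested, because its probe was well above background on 1 of 16 arrays, a MAT female. None of the 7 was called changed with age in limma, where a call needs at least 2-fold and an adjusted p under 0.05, in males (0 of 7, against 0.851% of the 26781 genes tested) or in females (0 of 7, against 0.19%). The arrays of MAT and AGED males overlapped for all 7, where 7.82% of all genes did not overlap. At an unadjusted p under 0.05 there was 1 in males, Adrb1, and 0 in females, where 16.2% and 10.5% of all genes passed. For the tested probes, the 95% intervals of the change lay within 2-fold for 6 of 7 in males and 5 of 7 in females. This holds for those probes and not for every probe of the genes. The 6 in males include Adra1d, whose tested probe was well above background on 3 MAT and 1 AGED male arrays, so its interval is uncertain. In females the intervals of the other kept probes of Adrb3 (-1.06 to 0.11) and Adrb1 (-0.27 to 1.29) went beyond 2-fold.

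For 5 of the 8 genes the RefSeq table holds a promoter of 300 bases, 250 before and 50 after the start, on build GRCm38.p6. The 3 sequences shown are those of Adrb1 and Adra1b, because these members came nearest to the threshold in an age or sex comparison, and Adra1b has 2 listed starts. Each is written 5′ to 3′ on the strand of the gene, and capitals mark GGGCGG, a GC box, on either strand.
Adrb1, chr19:56721867-56722166, plus strand: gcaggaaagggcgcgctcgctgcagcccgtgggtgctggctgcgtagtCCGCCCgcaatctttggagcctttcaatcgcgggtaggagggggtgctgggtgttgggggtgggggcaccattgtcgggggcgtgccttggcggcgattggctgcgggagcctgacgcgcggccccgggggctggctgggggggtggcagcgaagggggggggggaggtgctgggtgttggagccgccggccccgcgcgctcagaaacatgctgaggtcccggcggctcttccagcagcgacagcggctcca
Adra1b, chr11:43901188-43901487, minus strand: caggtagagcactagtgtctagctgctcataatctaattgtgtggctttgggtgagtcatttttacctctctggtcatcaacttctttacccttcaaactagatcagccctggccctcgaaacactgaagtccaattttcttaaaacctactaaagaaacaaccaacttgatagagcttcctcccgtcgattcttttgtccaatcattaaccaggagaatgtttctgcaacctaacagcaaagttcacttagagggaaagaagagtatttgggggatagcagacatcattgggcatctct
Adra1b, chr11:43836440-43836739, minus strand: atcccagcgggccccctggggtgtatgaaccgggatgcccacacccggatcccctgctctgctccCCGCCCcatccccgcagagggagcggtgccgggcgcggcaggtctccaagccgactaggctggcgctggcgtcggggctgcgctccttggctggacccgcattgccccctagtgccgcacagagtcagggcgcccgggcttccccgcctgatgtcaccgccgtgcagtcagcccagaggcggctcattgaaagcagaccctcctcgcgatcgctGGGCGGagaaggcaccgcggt
The GC content was 72.3% for Adrb1 and 42.3% and 71.3% for the starts of Adra1b, against a median of 52.7% over 32851 promoters of this length. Adrb1 held 1 GC box and 28 CpG, the first Adra1b sequence 0 and 3, and the other 2 and 28. GGGCGG on either strand was found in 35.7% of all these promoters. The full cAMP response element TGACGTCA was in none of the members' promoters and in 1.79% of all, and the shorter TGACG, which the full element contains, was in those of Adrb1 and Adra2a and in 20.8% of all. These matches are a description of the letters and not of binding.

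Adrb1, the beta-1 receptor, had the largest change in males among the tested members, and its groups overlapped. Its tested probe, A_52_P322181, read -2.49, -2.72, -3.04 and -2.79 on the MAT male arrays and -2.94, -3.27, -4.0 and -3.71 on the AGED male arrays. The lowest MAT array, replicate 3, lay below the highest AGED array, replicate 1, and the other 3 AGED arrays lay below all MAT arrays. The fitted change was -0.72 (SE 0.24, 95% interval -1.24 to -0.21, 1.65-fold higher in MAT), with an unadjusted p of 0.00946 and an adjusted p of 0.154 in limma. The exact two-sided permutation test gave p = 0.0571, where 4 arrays against 4 cannot go below 0.0286. Leaving out 1 array gave changes from -0.90 to -0.55, with limma adjusted p of 0.0627 to 0.282. The -0.90 and the 0.0627 came without AGED male replicate 1, the dimmest array. The mean of the kept probes changed by -0.30 (limma adjusted p = 0.609).

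In females the same probe read -3.09, -2.92, -2.87 and -2.82 in MAT and -2.52, -2.76, -3.62 and -2.81 in AGED. The AGED female values spread on both sides of the MAT values, and the group means were -2.92 and -2.93 (95% interval of the difference -0.52 to 0.51). The change in males minus that in females was -0.72 (limma adjusted p = 0.516), so a difference between the sexes in the age change of Adrb1 was not shown. The other Adrb1 probe, A_51_P203827, was well above background on 3 MAT male, 1 AGED male, 3 MAT female and 3 AGED female arrays, and its change in a limma fit of all probes was 0.12 in males, with an adjusted p of 0.904, and 0.51 in females, with an adjusted p of 0.702. The probes therefore disagreed in direction in males, but the sign of A_51_P203827 rested on AGED male replicate 1, the dimmest array. It read -4.15 there, not well above background, against -5.87, -5.48 and -5.21 on the other AGED male arrays. The MAT male mean was -5.29. The correlation of the probes over the 16 arrays was 0.34, given as a description over arrays that share their scaling.

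Adrb3, the beta-3 receptor, was well above background on all 16 arrays with both probes. Its tested probe, A_55_P1992849, read 1.67, 1.31, 1.35 and 1.24 in MAT males and 1.80, 1.16, 1.07 and 2.29 in AGED males. In females it read 1.89, 0.37, 1.40 and 1.01 in MAT and 0.70, 0.91, 0.88 and 1.45 in AGED. The groups overlapped in both sexes, with the widest spread in MAT females (mean 1.17 ± 0.64, SD, n = 4). The fitted change was 0.19 in males (95% interval -0.48 to 0.85, limma adjusted p = 0.797) and -0.18 in females (-0.85 to 0.48, adjusted p = 0.905). The other probe, A_55_P2105685, changed by -0.01 and -0.47 with adjusted p of 0.987 and 0.607 in limma. On it AGED males were higher than AGED females by 0.74 without overlap (limma adjusted p = 0.107, exact permutation p = 0.0286). On the tested probe they were higher by 0.60 with overlap (limma adjusted p = 0.241). Of all genes 13.7% did not overlap in that comparison, where sex and slide cannot be told apart.

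Adrb3 is also known as a receptor of fat cells, and the 7 adipocyte markers varied widely between arrays. Their mean log2 signal ranged from -3.61 to 0.60 in MAT males, -3.80 to 0.32 in AGED males, 1.37 to 3.2 in MAT females and 0.47 to 1.59 in AGED females. The median change of the 7 was -0.29 in males, where 6 were lower in AGED, and -1.12 in females, where all 7 were lower, and 3 of the 7 were well above background on all 16 arrays. The part of fat in the Adrb3 signal was not tested.

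**Figure D1:**
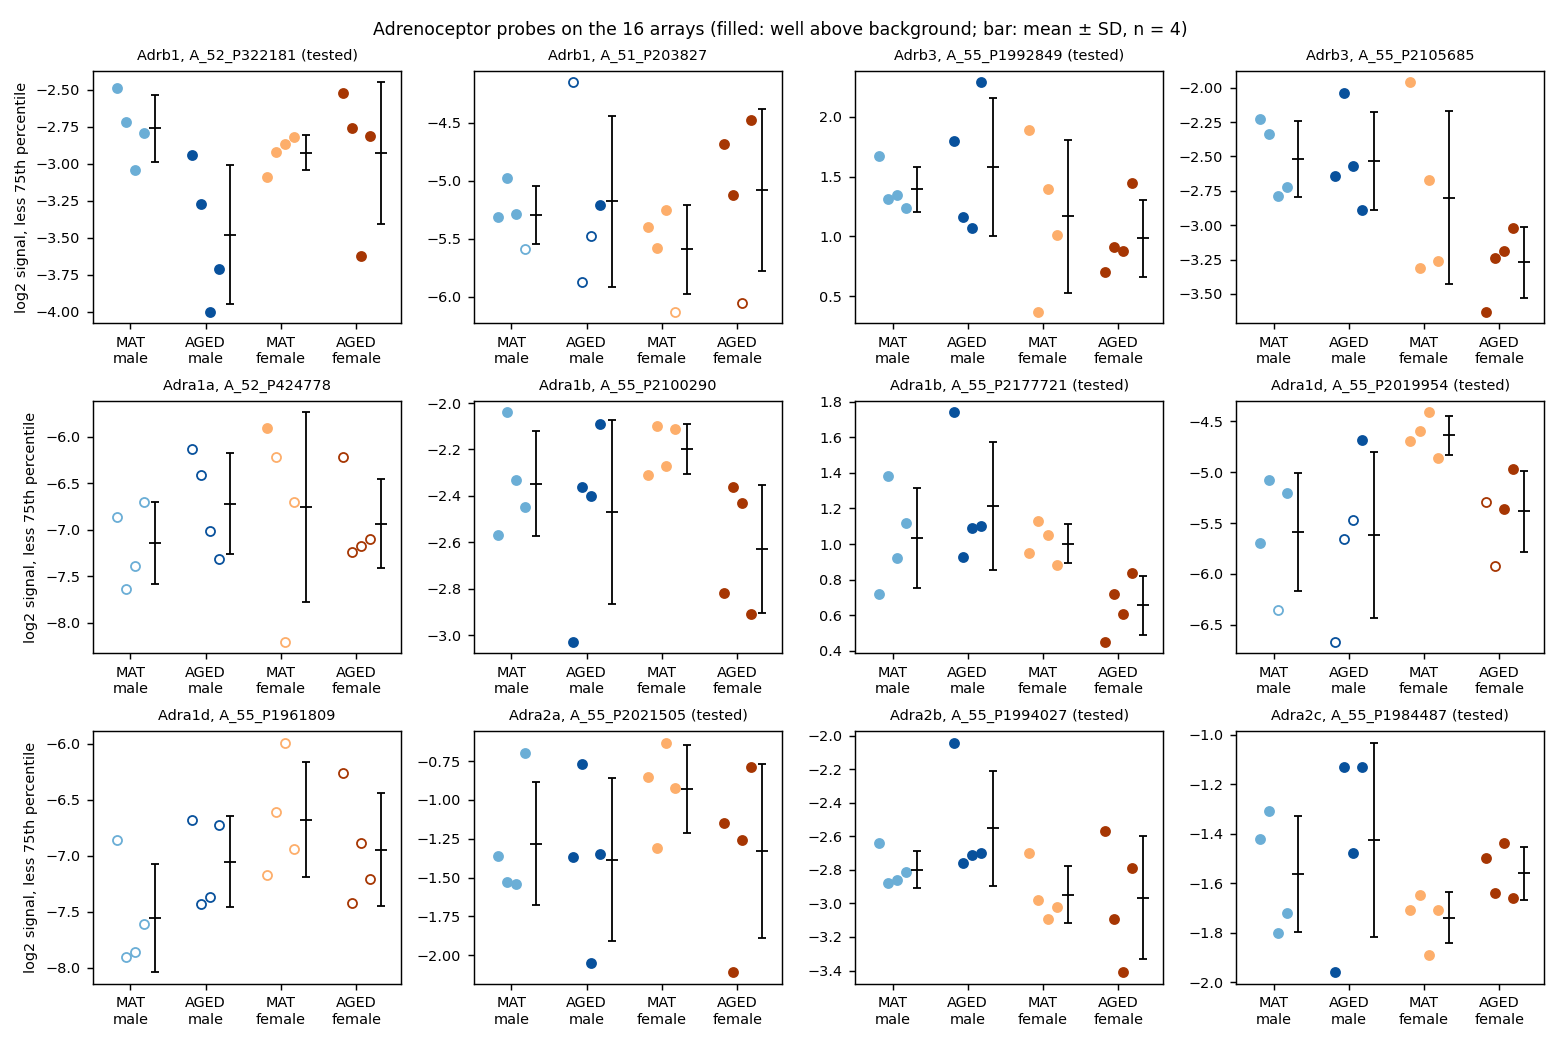
Log2 signal less the 75th percentile of each array for the 12 adrenoceptor probes, in 4 groups of 4 arrays, with the mean and SD as a black bar and arrays not well above background as open points. In Adra1b and Adra1d, the tested probes of the AGED females lie below those of the MAT females, and Adra1a is filled on 1 array.

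Adra1b, an alpha-1 receptor, was lower in AGED than in MAT females on every array with both of its probes, but by little. The tested probe, A_55_P2177721, read 0.95, 1.13, 1.05 and 0.88 in MAT females and 0.45, 0.72, 0.61 and 0.84 in AGED females. The highest AGED value, 0.84, lay just under the lowest MAT value, 0.88. The fitted change was -0.35 (95% interval -0.73 to 0.03, 1.27-fold higher in MAT, limma adjusted p = 0.524), and the exact permutation test gave p = 0.0286, the smallest it can give.

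The other Adra1b probe, A_55_P2100290, read -2.31, -2.10, -2.27 and -2.11 in MAT females and -2.82, -2.36, -2.43 and -2.91 in AGED females, which did not overlap either. Its change was -0.43 (95% interval -0.84 to -0.02, limma adjusted p = 0.476). The probes of this gene had a correlation of 0.04 over the 16 arrays, which rested on AGED male replicate 1, the dimmest array, where they read 1.74 and -3.03. Without it the correlation was 0.66 over 15 arrays, a value added after the data were seen. Among the 7 tested genes, 2 did not overlap between MAT and AGED females, Adra1b and Adra1d, where 10.8% of all genes did not overlap in either direction and 5.78% with AGED lower.

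In males the tested Adra1b probe read 0.72, 1.38, 0.92 and 1.12 in MAT and 1.74, 0.93, 1.09 and 1.10 in AGED. The high AGED value came from replicate 1, the dimmest array, and the change of 0.18 (95% interval -0.20 to 0.56, limma adjusted p = 0.643) was 0.01 without it. AGED males were higher than AGED females by 0.56 (SE 0.18, limma adjusted p = 0.0614, exact permutation p = 0.0286), with no overlap, and by 0.39 without that array (adjusted p = 0.0952). That adjusted p of 0.0614 was the lowest of any tested member in the 5 comparisons, none of which called a member. In the comparison of AGED males with AGED females 3.11% of all genes were called, and the arrays of 1 of 7 members and of 13.7% of all genes did not overlap. The other probe gave 0.16 (limma adjusted p = 0.644). Slide and sex cannot be told apart in it.

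Adra1d, an alpha-1 receptor of smooth muscle, was near background. Its tested probe, A_55_P2019954, was well above background on 3 MAT male, 1 AGED male, 4 MAT female and 2 AGED female arrays. It read -4.69, -4.59, -4.41 and -4.86 in MAT females and -5.29, -5.92, -5.36 and -4.97 in AGED females. All MAT female values lay above all AGED female values, with a change of -0.74 (95% interval -1.51 to 0.02, 1.67-fold higher in MAT, limma adjusted p = 0.491, exact permutation p = 0.0286). Because 2 of the 4 AGED female arrays did not reach well above background, the size of this difference is uncertain.

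MAT males read -5.70, -5.08, -6.36 and -5.20 for Adra1d and lay below all MAT females, with a difference of -0.95 (1.93-fold higher in MAT females, limma adjusted p = 0.255, exact permutation p = 0.0286). It was the 1 member of 7 without overlap there, and 18.4% of all genes had none. With array weights in the limma fit the difference was -1.23 (adjusted p = 0.00735), which passed the limits of a call. With normexp, another background correction, it was 0.0 (limma adjusted p = 0.995), and without MAT male replicate 3 it was -0.69 (adjusted p = 0.433). Sex and slide cannot be told apart in this difference. AGED males read -6.67, -5.66, -5.47 and -4.68, a wider range than any other group, and their change from MAT males was -0.03 (95% interval -0.80 to 0.73, limma adjusted p = 0.973). The other Adra1d probe, A_55_P1961809, was well above background on 0 of 16 arrays, so it gives no fold. Adra1a read -6.86, -7.64, -7.39 and -6.70 in MAT males, -6.13, -6.41, -7.01 and -7.32 in AGED males, -5.90, -6.22, -8.21 and -6.70 in MAT females and -6.22, -7.24, -7.18 and -7.10 in AGED females, and no fold is given for it.

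In the same comparison of AGED with MAT females, several marker lists of other cell types differed in the direction of most of their genes, while 0 of their genes were called. All 7 adipocyte, all 6 Schwann cell, all 5 T cell and all 4 B and plasma cell genes were lower in AGED females, with median changes of -1.12, -0.47, -0.21 and -0.88, and all 4 tested macrophage genes were higher, with a median of 0.59. Of all genes tested, 50.9% were lower in AGED females. The means of the T cell and the B and plasma cell lists were lowest on AGED female replicate 1, at -1.53 and -2.73. The other AGED female arrays read -0.95 to -0.18 and -0.45 to 0.28, against -0.82 to -0.30 and -0.78 to 1.05 in MAT females. Of the 8 autonomic neuron genes 7 were lower, with a median of -0.39, and Chat was higher by 0.38. The mean log2 signal of the Schwann cell list did not overlap (-0.13 to 0.04 in MAT and -0.82 to -0.36 in AGED), and those of the other lists named here overlapped. No share over all genes is given for the mean of a list. In males all 6 Schwann cell genes were lower too, with a median of -0.39, and 6 of 7 adipocyte genes, with a median of -0.29. All 5 T cell and all 4 B and plasma cell genes were higher in AGED males, with medians of 0.52 and 0.79. The T cell mean read 0.84 on AGED male replicate 1, the dimmest array, and -0.84, -1.57 and -1.59 on the others. MAT males read -1.70 to -1.33. The B and plasma cell mean read -3.39, -4.89, -1.52 and -1.26 in MAT males and -1.64, -1.08, -3.47 and -1.86 in AGED males. The macrophage genes were split, 2 higher and 2 lower. Of the autonomic neuron genes 4 of 8 were lower in males, and 1 was called, Stmn2, at -1.08 (limma adjusted p = 0.0359). The means of these lists overlapped in males. Fewer cells of a type and less RNA per cell cannot be told apart in bulk tissue, and the part of these cells in the receptor values was not tested.

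The alpha-2 receptors were well above background on all 16 arrays and none was called. Adra2a, the presynaptic receptor of many sympathetic nerves, read -1.36, -1.53, -1.54 and -0.70 in MAT males and -1.37, -0.77, -2.05 and -1.35 in AGED males. It read -0.85, -1.31, -0.63 and -0.92 in MAT females and -1.15, -2.11, -1.26 and -0.79 in AGED females. The groups overlapped, and the change was -0.10 in males (95% interval -0.75 to 0.54) and -0.40 in females (-1.04 to 0.24), with limma adjusted p of 0.893 and 0.705.

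Adra2b read -2.64, -2.88, -2.86 and -2.81 in MAT males and -2.04, -2.76, -2.71 and -2.70 in AGED males, where replicate 1 stood apart. In females it read -2.70, -2.98, -3.09 and -3.02 in MAT and -2.57, -3.09, -3.41 and -2.79 in AGED. The change was 0.25 in males (95% interval -0.16 to 0.65, limma adjusted p = 0.543), 0.08 without AGED male replicate 1, and -0.02 in females (-0.43 to 0.39, adjusted p = 0.986).

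Adra2c, which has a role in slow feedback on transmitter release, read -1.42, -1.31, -1.80 and -1.72 in MAT males and -1.96, -1.13, -1.48 and -1.13 in AGED males. In females it read -1.71, -1.65, -1.89 and -1.71 in MAT and -1.5, -1.64, -1.44 and -1.66 in AGED. Its change was positive in both sexes, 0.14 in males (95% interval -0.23 to 0.51) and 0.18 in females (-0.19 to 0.55), with limma adjusted p of 0.721 and 0.793.

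**Figure D2:**
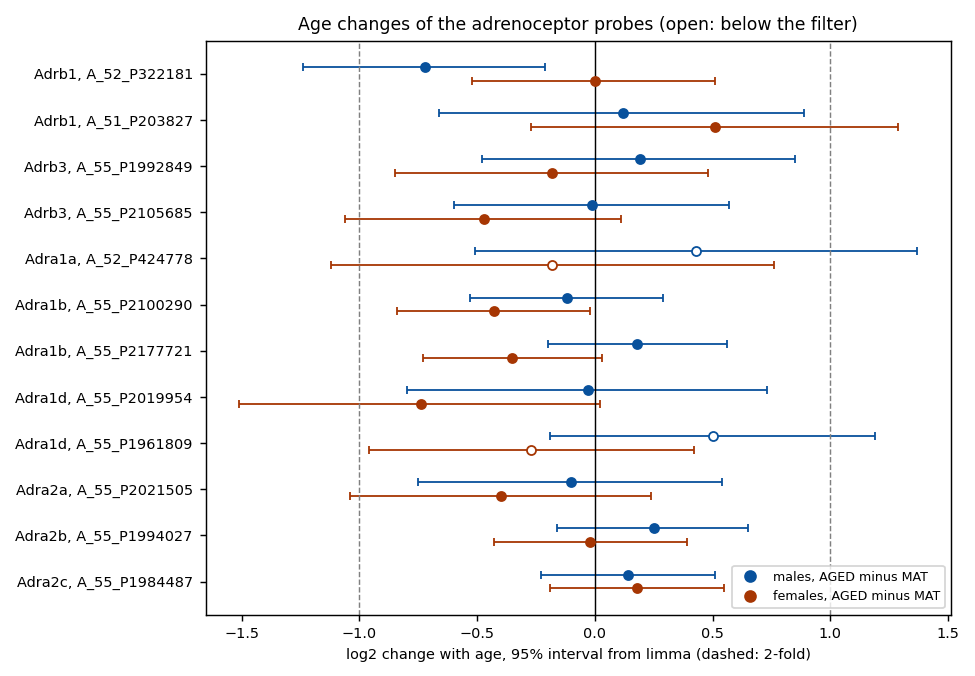
Log2 change with age (AGED minus MAT) of each adrenoceptor probe in males and females with its 95% interval from limma, where dashed lines mark 2-fold and open points are probes below the filter. The interval of Adrb1 in males, -1.24 to -0.21, leaves 0, and the other tested probes' intervals hold 0.

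The 4 groups were also ranked by their mean for each tested member. No share over all genes is given for this ranking, so it is a description. For Adrb3, Adra2a, Adra2b, Adra2c and Adrb1, no pair of neighbouring groups in the order of means was free of overlap. For Adra1b the order was AGED male, MAT male, MAT female and AGED female, and the last step did not overlap. For Adra1d the order was MAT female, AGED female, MAT male and AGED male, and the first step did not overlap. The age change in males minus that in females was between -0.72 (Adrb1) and 0.71 (Adra1d) over the 7 tested members, and the lowest limma adjusted p was 0.516, with 0.149% of all genes passing. At an unadjusted p under 0.05 this difference passed in 0 of 7 members and in 9.87% of all genes.

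The median age change of the 7 members was 0.14 in males and -0.18 in females, against 0.001 and -0.006 over all genes tested. Between the sexes in MAT mice the lowest adjusted p was 0.255 (Adra1d) and 0.164% of all genes were called, while 1 of 7 members and 14% of all genes had an unadjusted p under 0.05. AGED males and females differed at an unadjusted p under 0.05 in 3 of 7 members, Adra1b, Adra2b and Adrb1, where 26.2% of all genes did. The difference, AGED male minus AGED female, was -0.56 for Adrb1 (limma adjusted p = 0.161) and 0.41 for Adra2b (adjusted p = 0.183).

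The genes of adrenergic signalling were taken as 8 lists of 67 genes, from catecholamine handling to the BK channel, and 64 were tested. The lists were chosen with earlier results of these data known. In males 0 were called higher (0.276% of all genes) and 2 lower in AGED (0.575% of all genes), Kcnmb1 and Adcy1, and in females 0 in either direction. At an unadjusted p under 0.05 there were 3 higher and 9 lower in males (18.8%, against 16.2% of all genes) and 1 higher and 6 lower in females (10.9%, against 10.5%). The 9 lower in males, and so the 18.8%, include Plcb2, whose male signals all lacked the flag for standing clear of background. Its entry there is not read as an age change. These shares at an unadjusted p lay near the background, and the median change was -0.11 in males and -0.06 in females. The change was below 0 for 42 of 64 in males and 35 of 64 in females, against 49.8% and 50.9% of all genes. Plcb2 is counted below 0 in both sexes, with the same limit.

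Kcnmb1, the beta-1 subunit of the BK potassium channel, which limits the excitability of smooth muscle, fell in AGED males. It read 0.99, 0.87, 0.80 and 0.43 in MAT males and -0.15, 0.17, -0.69 and -0.28 in AGED males, with no overlap. The change was -1.01 (SE 0.18, 2.01-fold higher in MAT, limma adjusted p = 0.0102), which sits at the 2-fold limit, and without AGED male replicate 3 it was -0.86, without AGED male replicate 4 -0.99, without MAT male replicate 1 -0.94 and without MAT male replicate 2 -0.98, under that limit. In females it was 0.04 (limma adjusted p = 0.972), and the difference between the sexes was -1.05 (adjusted p = 0.117), which did not pass.

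Adcy1, an adenylyl cyclase that makes cAMP, read -2.16, -2.18, -1.87 and -2.40 in MAT males and -3.49, -2.91, -3.24 and -3.82 in AGED males. No AGED value reached a MAT value, and the change was -1.21 (SE 0.29, 2.32-fold higher in MAT, limma adjusted p = 0.0495). The value of AGED male replicate 1, -3.49, was not well above background. The call rested on a p just under the threshold, and leaving out any single array of the MAT males, or AGED male replicates 1, 3 or 4, or any single MAT female array, or AGED female replicate 1, took it above 0.05 (0.059 to 0.14). In females the change was -0.81 (limma adjusted p = 0.35).

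**Figure D3:**
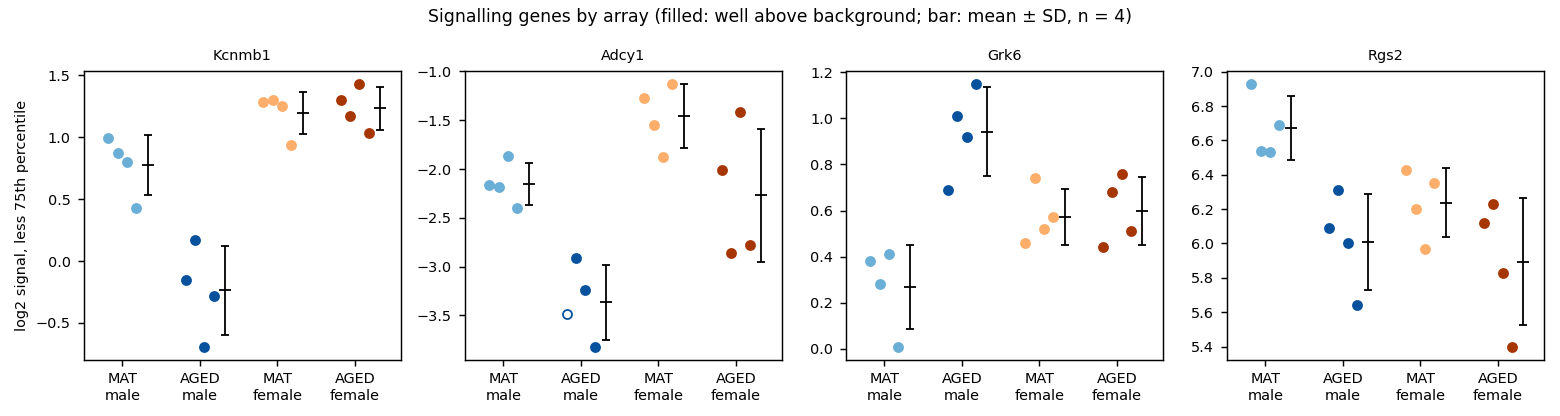
Log2 signal less the 75th percentile of each array for Kcnmb1, Adcy1, Grk6 and Rgs2, with 4 arrays a group and the mean and SD as a black bar. The AGED males lie below the MAT males for Kcnmb1, Adcy1 and Rgs2 and above them for Grk6.

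Of the receptor kinases, arrestins and RGS proteins, Grk6, a kinase that phosphorylates activated receptors, was higher in AGED males by 0.68 (SE 0.13, 1.60-fold, limma adjusted p = 0.0183), under the 2-fold limit. Its values were 0.38, 0.28, 0.41 and 0.01 in MAT males and 0.69, 1.01, 0.92 and 1.15 in AGED males. Its other probe gave -0.02, and normexp background correction gave -0.32 for the tested probe, so its direction depends on the probe and the background. Rgs2, which speeds the shutdown of Gq signals, gave -0.66 in males (limma adjusted p = 0.0953), and its other probe gave -2.04 (adjusted p = 0.0127 over all probes), a disagreement in size.

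Among the G protein subunits, Gnao1 had a change of -1.03 in males (limma adjusted p = 0.0723), and its other probe gave -0.42 (adjusted p = 0.297). Without AGED male replicate 1 or 2 it passed the limits of a call at -1.19 (adjusted p = 0.0418 and 0.0402), and without AGED male replicate 4 it was -0.71. Gna11, a Gq-family subunit, gave 0.45 (limma adjusted p = 0.274). Of the phospholipase C and protein kinase C genes, Prkca gave -0.69 in males (adjusted p = 0.0952), but its other probe gave -0.07. The phosphodiesterases that break down cAMP ranged from -0.23 to 0.07 in males and -0.34 to 0.15 in females, with Pde4a in males (limma adjusted p = 0.368) and Pde4d in females (adjusted p = 0.548) nearest to a call. The monoamine oxidases Maoa and Maob, which break down catecholamines, gave -0.66 in males for Maoa (limma adjusted p = 0.273) and -0.72 in females for Maob (adjusted p = 0.418). Th, the rate-limiting enzyme of catecholamine synthesis, gave -0.02 in males and -0.21 in females.

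Adcy8, another cyclase, gave 0.64 in males (limma adjusted p = 0.152), but 3 of the 4 AGED male arrays were not well above background for it. Plcb2 passed the filter through the 4 MAT female arrays alone and was well above background on 0 of 8 male arrays. Its fitted changes, -0.69 in males and -0.07 in females, are therefore not read as results, nor are those under other settings below. Kcnmb4 gave -0.52 in males (adjusted p = 0.234). Prkacb and Prkar1b, subunits of protein kinase A, gave -0.31 (adjusted p = 0.404) and -0.53 (adjusted p = 0.447) in females in limma.

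**Figure D4:**
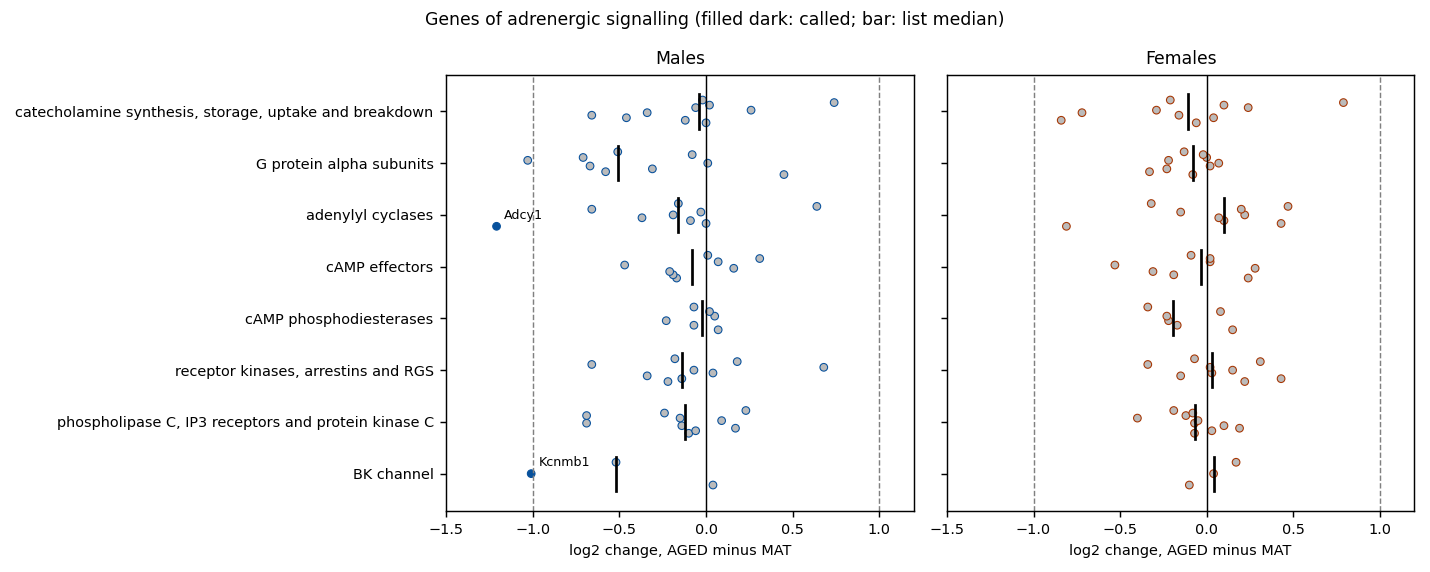
Log2 change with age (AGED minus MAT) of the 64 tested signalling genes by list, in males and in females, where dark points passed the adjusted p and 2-fold limits and the black bar is the median of the list. Dark points are Kcnmb1 and Adcy1 in males.

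For each member with a tested probe well above background on at least 12 of 16 arrays, genes most like it were taken from 13388 genes with a reference symbol, as the Pearson correlation of log2 signals over the 16 arrays. Adrb1 was most like Ndor1 (0.86), Ubxn2a (0.82) and Kcnj12 (0.81), and Adrb3 like Kidins220 (0.75), Gdap1 (0.73) and Gphb5 (0.71). Adra1b was most like E130304I02Rik (0.91), D830030K20Rik (0.88) and Smco4 (0.84), and Adra2a like Matn2 (0.88), Shc2 (0.88) and Epdr1 (0.81). Adra2b was most like Tcp10c (0.94) and Fscn3 (0.91), and Adra2c like Ech1 (0.84), Kmt5a (0.84) and Fam126a (0.83). The points share their arrays and scaling, and the best of many genes is high by choice, so no test is given.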

How the data were processed

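RNA of the bladder body was labelled with Cy3 and hybridized to 1-colour Agilent arrays. The authors deposited the scanner intensity of each spot, written by Agilent Feature Extraction, which subtracts background (version 10.7.3.1 per the file headers, 9.1 in the submitters' processing notes). A table of log2 values deposited by the authors follows the scaled scanner values after centring each probe, and was used as an alternative. Its column direction was that of the scanner values.

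Each array had 62976 spots. The processed signal was set on the log2 scale, less the 75th percentile of its array. Outlier-flagged spots were dropped, which removed 399 probe values, and 0 spots were saturated. Of 55681 probes, 26582 were named through RefSeq accessions of GRCm38.p6. The filter needed a signal well above background on 4 or more of 16 arrays (36972 probes passed), and a gene was tested by its kept probe of highest mean (26781 genes). Limma 3.58.1 in R 4.3.3 was fitted as 1 model of 4 group means with 12 residual degrees of freedom, and a call needed a Benjamini-Hochberg adjusted p under 0.05 over all genes tested and at least a 2-fold change (no fold limit for the difference of age changes). Values of probes other than the tested one come from the same fit on all kept probes. Exact permutation tests were two-sided. The number of arrays, 4 a group, limits the precision. The procedure was tested on simulated data. Correlations between replicates of a group were 0.957 to 0.993.

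Members, signalling lists and markers were chosen with earlier results of these data known. All members were named, with the called signalling genes and the 2 of smallest p in each list. Th was added after its values were seen. For each member measured on at least 12 arrays, the 3 genes of highest correlation were named, and 1 of these is not reported here. Alternatives covered scaling, background correction, filters, probe choice, tests, models and leaving out each array.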

Additional observations from a re-analysis of the deposited data

Results flagged for a closer look

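Of 112 groups of 4 arrays checked, 8 (7.14%) held 1 array whose gap to its nearest neighbour took a large share of the range of the group (above Dixon's 95% critical value), and chance marks about 1 in 20 groups. For Adra2b, AGED male replicate 1 read -2.04 against -2.70 to -2.76 on the other arrays (gap 0.92 of the range). For Adra1a, AGED female replicate 1 read -6.22 against -7.10 to -7.24 (0.858), on a probe below background there. The same dim array, AGED male replicate 1, stood apart for Pde4d (0.924). MAT male replicate 4 stood apart for Gna11 (0.889) and Prkacb (0.924), MAT male replicate 2 for Gnao1 (0.837), and MAT female replicate 4 for Kcnmb1 (0.854) and Prkca (0.896).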

How the results depend on the processing

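In the age comparisons no alternative called a member (0 in each). With array weights 1 member, Adra1d, was called between MAT males and MAT females. The count of signalling genes called in males, 2 as reported, was 6 with normexp (Kcnmb1 was among them, and Adcy1 was not, at -0.62 with a limma adjusted p of 0.0792), 1 without a filter on dim probes or with all 16 arrays required, and 0 with the methods' t-test after adjustment, with each sex fitted alone or with array weights. Leaving out 1 array gave 0 to 3, with 0 without AGED male replicate 3 or 4 or MAT male replicate 1 or 2, and 3 without AGED male replicate 2. The causes were not tested. Same-numbered samples did not deviate together (r -0.148 to 0.0661), and with the replicate number as a block 1 signalling gene was called in males, Kcnmb1 (Adcy1 adjusted p = 0.145, limma), and 0 members. The median change of all genes in males was 0.118 with normexp and 0.001 as reported.

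Small changes turned in sign under some settings. In the age change of males, normexp gave -0.13 for Adrb3, -0.11 for Adra1b, 0.24 for Adra1d, 0.15 for Adra2a, -0.40 for Gna11, -0.32 for Grk6, 0.13 for Pde4d, 0.11 for Plcb2 and 0.12 for Prkacb. Normexp also gave 0.0 for Adra2b in females, 0.0 for Adra1d between MAT sexes, and 0.41 for Adra1d and 0.25 for Adra2a between AGED sexes. A floor on low signals gave 0.38 for Adra1d in males and 0.19 between AGED sexes, and 0.41 and 0.23 for Plcb2 in males and females. The mean of the kept probes gave 0.25 for Adrb1 and 0.02 for Prkca in females, -0.06 for Adra1b between MAT sexes and 0.10 for Pde4d in males. Array weights gave 0.02 for Adrb1 in females, -0.10 for Adra1b between MAT sexes, 0.39 for Adra1d, 0.14 for Adra2a and 0.09 for Pde4d in males, 0.20 for Adra2a between AGED sexes and 0.17 for the difference of age changes of Adra2c. Quantile normalization gave 0.01 for Adrb1 in females and -0.0 for Adra1b between MAT sexes.

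Leaving out 1 array gave, in the age change of males, -0.35 to 0.32 for Adra1d, -0.31 to 0.12 for Adra2a, -0.05 to 0.36 for Adrb3, -0.50 to 0.02 for Maob and -0.16 to 0.14 for Pde4d. In females it gave -0.15 to 0.13 for Adra2b, -0.14 to 0.23 for Adrb1, -0.45 to 0.06 for Adrb3, -0.03 to 0.08 for Grk6, -0.04 to 0.11 for Kcnmb1, -0.24 to 0.03 for Plcb2 and -0.20 to 0.0 for Prkca. Between MAT sexes it gave -0.08 to 0.14 for Adra1b and -0.04 to 0.47 for Adrb3, between AGED sexes -0.55 to 0.11 for Adra1d and -0.32 to 0.16 for Adra2a, and for the difference of age changes -0.14 to 0.14 for Adra2c. The age change of Adrb1 in males was negative, from -0.90 to -0.30, under each alternative that gave the gene 1 value, with adjusted p of 0.0627 to 0.609 in limma and the methods' t-test.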
